A study of Mus musculus with 6 samples.

Results

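The genes that make cholesterol and sense its level were followed in bone marrow-derived macrophages of mice with and without cadherin-11. The set was chosen by gene name, with earlier results of these data known, and holds 30 of the 42256 genes in the count table. It comprises 20 enzymes of or beside the route from acetyl-CoA to cholesterol, 6 genes that control the transcription factor SREBP2, and 4 sterol carriers. The 20 enzymes include Acly, which supplies acetyl-CoA, and Ggps1, which makes a longer isoprenoid chain beside the sterol route. Each of the 30 names matched 1 Ensembl gene, and all 30 passed the filter on low counts, with 151 to 42557 counts per gene and library. The list does not cover every enzyme of the route.

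Wild type (WT) cultures carried the genotype CDH11+/+ and knockout (KO) cultures CDH11-/-, both on a mixed background of 129S1/Sv and C57BL/6. Marrow came from femur and tibia of adult male mice and was grown for 7 days with 20% L929-conditioned medium, a source of the macrophage growth factor CSF1, and 10% FBS, and no treatment was given before lysis. There were 3 libraries per genotype. The source label reads total bone marrow and the cell type label macrophage. Animals are mentioned only for the study as a whole, with 4 KO animals, and are not tied to libraries, so each p-value reflects only the spread among these 6 libraries, and that spread may be technical. The labels name no promoter, Cre driver or clone. Library totals ran from 27170943 to 37113689 counts. Cdh11 had 6 to 11 counts in WT and 4 to 6 in KO libraries, too few to check the genotype by its transcript. Checked against the macrophage label, 7 defining genes of macrophages were all expressed. The fibroblast genes Dcn and Lum had no count in any library.

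Cells build cholesterol from acetyl-CoA in the cytosol and the endoplasmic reticulum. Acetyl-CoA becomes mevalonate, mevalonate becomes isoprenoid units, these are joined to squalene, and squalene is closed to lanosterol and trimmed to cholesterol. SREBP2 switches most of these genes on. It lies as an inactive precursor in the endoplasmic reticulum membrane, bound to its escort SCAP. When sterols are plentiful, INSIG proteins hold the complex there; when they are scarce, it moves to the Golgi, where the proteases encoded by Mbtps1 and Mbtps2 release the active factor. Macrophages also take in cholesterol with lipoproteins and cell debris, and NPC2 and NPC1 pass it out of the lysosome.

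A total of 15 genes of the set were lower in KO macrophages and no member was called higher. Levels are given in CPM, TMM-scaled counts of a gene relative to the size of its library, as mean ± SD with n = 3 per genotype. A gene is said to have fallen or risen only where edgeR's quasi-likelihood test over all 12862 genes tested gave a Benjamini-Hochberg adjusted p under 0.05. By that rule 15 of 30 members fell and 0 rose, where 16.8% of all tested genes fell, 18.5% rose and 35.2% were called in either direction. DESeq2 and limma-voom also called 15 members lower and 0 higher, and at an unadjusted p under 0.05 each of the 3 tools had 16 lower and 1 higher. The median log2 fold change of the 30 members was -0.30, against 0.0014 over all genes tested. In 16 members every KO library was below every WT library, an arrangement found in 26.4% of all tested genes. These 16 are the 15 that fell and Tm7sf2. The opposite arrangement, found in 27.0% of all tested genes, occurred in 0 members. The members were chosen with earlier results of these data known, so these comparisons with all genes describe the set and do not test it. In bulk RNA, fewer cells of a type and less RNA per cell cannot be told apart.

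**Figure D1:**
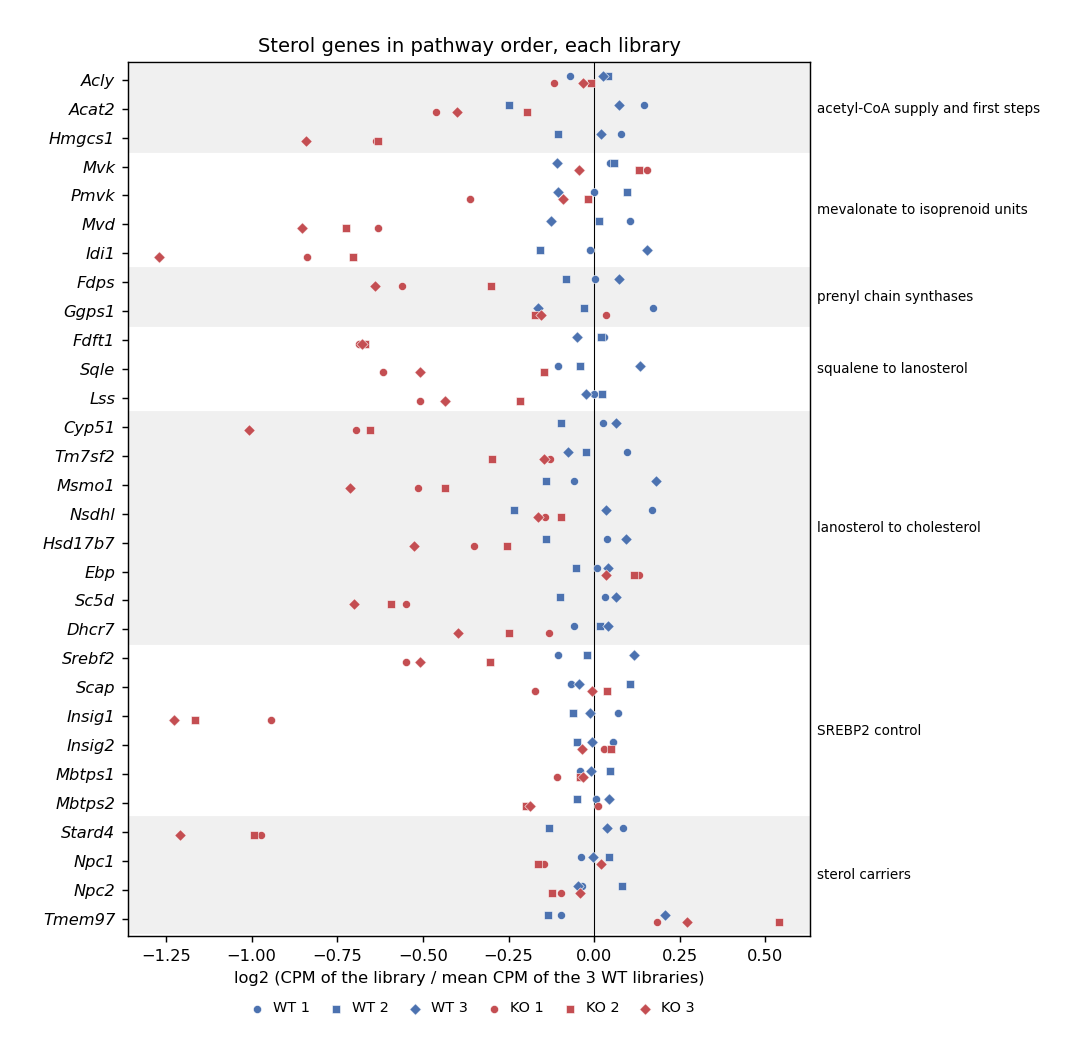
Each row is 1 gene in pathway order and each point 1 library (blue WT, red KO), placed at the log2 ratio of its CPM to the mean of the 3 WT libraries. The red points of Insig1 and Stard4 lie near -1, those of 13 further genes also lie left of the blue points and passed the test, and those of Insig2, Mvk and Ebp overlap them.

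The fall was spread over the 3 KO libraries. Among the 15 members that fell, the median level relative to the WT mean was 102%, 94.6% and 105% in WT 1 to WT 3 and 65.2%, 66.2% and 61.4% in KO 1 to KO 3. KO 3 was the lowest library for 11 of the 15 and KO 1 for the other 4, while KO 2 was the lowest for 0. These medians describe genes selected by the same contrast. Over all 20 enzymes, called or not, the medians were 102%, 96.9% and 103% in WT and 71.5%, 84.0% and 72.2% in KO. Summed over the 20 enzymes, the level was 731, 709 and 757 CPM in WT 1 to WT 3 and 571, 607 and 545 CPM in KO 1 to KO 3, so that KO libraries held 78.4% of the WT mean and the genotypes did not overlap. Acly, which was not called, held 189 CPM of the mean sum of 732 CPM in WT and 182 CPM of 574 CPM in KO. The coefficient of variation was under 10% in both genotypes for 18 of the 30 members.

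Genes that mark macrophages, dividing cells and other cell types were followed beside these results, where 35.2% of all tested genes were called. The 7 macrophage genes summed to 30498 to 33162 CPM in WT and 19119.5 to 24870.3 CPM in KO, where Lyz2 and Csf1r fell and Cd68 rose. Lyz2 held most of this sum, with means of 23638 CPM in WT and 15915 CPM in KO. Of 8 genes of dividing cells edgeR called 3 higher (Mcm2, Mcm5 and Pcna) and 0 lower; 7 higher and 0 lower had an unadjusted p under 0.05, DESeq2 called 6 higher and limma-voom 7, and both called 0 lower. Their summed level was 490.0, 389.8 and 679.6 CPM in WT 1 to WT 3 and 877, 1378 and 996 CPM in KO 1 to KO 3, without overlap between genotypes. Of 5 osteoclast genes tested 3 rose and 1 fell, with sums of 114 to 134 CPM in WT and 146 to 194 CPM in KO and Calcr at 0 in every library. The 1 that fell, Nfatc1, averaged 77.5 CPM in WT and 55.0 CPM in KO. Of 3 megakaryocyte and platelet genes tested 2 rose, with sums of 167 to 243 CPM in WT and 177 to 281 CPM in KO. Most of these sums was Pf4, which was not called and averaged 208 CPM in WT and 217 CPM in KO. Those that rose were Itga2b, from 0.810 to 5.21 CPM, and Ppbp, from 2.74 to 5.53 CPM. Of 7 neutrophil genes 0 were called by edgeR, DESeq2 or limma-voom (1 higher in each at an unadjusted p under 0.05), with sums of 33.5 to 86.3 CPM in WT and 39.9 to 114 CPM in KO. Dendritic cell genes summed to 1.69 to 1.98 CPM in WT and 1.40 to 2.59 CPM in KO. Only 3 of these 6 were tested, and edgeR, DESeq2 and limma-voom called 0. At an unadjusted p under 0.05 edgeR had 1 higher, and DESeq2 and limma-voom had 0. Fibroblast genes summed to 0.113 to 0.276 CPM in WT and 0.211 to 0.365 CPM in KO. T and B cell genes summed to 0.321 to 0.642 CPM in WT and 0.412 to 0.807 CPM in KO. None of the fibroblast, T cell or B cell genes passed the filter on low counts. The part of any of these classes in the levels of the sterol genes was not tested.

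Promoters of 4 members are shown as examples of the results: Hmgcs1 and Idi1, early enzymes that fell; Insig1, which also fell; and its paralog Insig2, which was not called. The windows run from 250 bases before to 50 bases after the RefSeq start on GRCm38.p6 and were available for 25 of the 30 members. Hmgcs1 is chr13:119690101-119690400 (plus strand), Idi1 chr13:8885356-8885655 (plus strand), Insig1 chr5:28071162-28071461 (plus strand) and Insig2 chr1:121332540-121332839 (minus strand; of 3 starts listed, the one nearest the GENCODE start), each written on the gene's own strand. Capitals mark 3 motifs searched on both strands, which did not overlap each other: TCACNCCAC, the core of the sterol regulatory element bound by SREBP; CCAAT, which reads ATTGG on the other strand, bound by NF-Y; and GGGCGG, which reads CCGCCC on the other strand, the GC box bound by Sp1.
Hmgcs1: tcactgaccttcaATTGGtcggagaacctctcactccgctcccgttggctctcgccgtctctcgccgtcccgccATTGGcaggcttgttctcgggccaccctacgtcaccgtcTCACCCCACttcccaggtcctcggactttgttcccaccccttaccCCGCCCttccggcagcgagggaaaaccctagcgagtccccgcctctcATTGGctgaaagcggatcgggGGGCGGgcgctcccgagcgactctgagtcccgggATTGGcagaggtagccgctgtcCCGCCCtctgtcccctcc
Idi1: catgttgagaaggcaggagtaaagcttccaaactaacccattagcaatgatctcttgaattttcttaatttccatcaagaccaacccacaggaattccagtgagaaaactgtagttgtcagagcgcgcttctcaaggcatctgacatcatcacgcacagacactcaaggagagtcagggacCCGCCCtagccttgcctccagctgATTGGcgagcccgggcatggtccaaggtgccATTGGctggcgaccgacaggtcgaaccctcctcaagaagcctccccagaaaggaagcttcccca
Insig1: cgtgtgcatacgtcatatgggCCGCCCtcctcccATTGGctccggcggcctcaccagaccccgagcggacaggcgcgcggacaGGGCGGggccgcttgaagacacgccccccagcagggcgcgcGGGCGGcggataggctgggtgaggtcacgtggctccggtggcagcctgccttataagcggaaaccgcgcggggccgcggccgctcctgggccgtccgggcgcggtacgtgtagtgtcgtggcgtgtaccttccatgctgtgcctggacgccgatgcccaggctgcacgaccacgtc
Insig2: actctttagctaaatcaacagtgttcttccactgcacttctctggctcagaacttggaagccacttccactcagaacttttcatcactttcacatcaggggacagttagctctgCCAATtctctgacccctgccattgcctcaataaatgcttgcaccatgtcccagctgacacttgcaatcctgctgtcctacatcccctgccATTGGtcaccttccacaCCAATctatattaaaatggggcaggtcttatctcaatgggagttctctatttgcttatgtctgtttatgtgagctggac

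The sterol element letters were present in 1 of the 25 member promoters, that of Hmgcs1, from 137 to 129 bases before the start. They were present in 1.24% of the 32851 promoters of the same length. CCAAT was present in 20 of the 25 (80%) and in 37.4% of all promoters, and GGGCGG in 21 of the 25 (84%) and in 35.7% of all promoters. These shares are not matched: members count at 1 start each, while the 32851 promoters include further starts of a gene. Nor were those promoters limited to the genes tested here. Of the 11 members that fell and have a promoter window, 10 held CCAAT and 11 held GGGCGG; of the other 14, 10 held each. Insig1 held 1 CCAAT and 3 GGGCGG, while Insig2 held 3 CCAAT and 0 GGGCGG in the window shown. The windows of the other listed Insig2 starts did hold GGGCGG, at -6 to -1 and at -128 to -123 from those starts. The contrast between the paralogs therefore depends on the start chosen. The counts per member use the start nearest the GENCODE start. Further listed starts were searched too, and 1 of Dhcr7 held CCAAT, which its counted window lacked. A match describes letters in its own window only, and sites outside the listed windows or of another spelling were not searched.

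Gene coordinates given here are those of GENCODE M21 on GRCm38. At the entry of the pathway 1 of 3 enzymes fell. Hmgcs1, the cytosolic synthase that makes HMG-CoA (ENSMUSG00000093930, chromosome 13, 119690379 to 119708260, plus strand), stood at 85.5, 75.2 and 82.2 CPM in WT 1 to WT 3 and at 52.0, 52.3 and 45.2 CPM in KO 1 to KO 3. No KO library reached the lowest WT library, and the mean fell from 81.0 ± 5.28 to 49.8 ± 4.02 CPM, or to 61.5% of WT (log2 fold change -0.70, SE 0.08, adjusted p = 0.00459). Acly, the ATP citrate lyase that supplies acetyl-CoA to both sterol and fatty acid synthesis, stood at 180.0, 195 and 193 CPM in WT 1 to WT 3 and at 174, 188 and 185 CPM in KO 1 to KO 3 and its genotypes overlapped (log2 fold change -0.05, 95% interval -0.19 to 0.09, adjusted p = 0.52). Acat2, the cytosolic thiolase that condenses acetyl-CoA to acetoacetyl-CoA, averaged 11.8 ± 1.65 CPM in WT and 9.30 ± 0.911 CPM in KO, and its adjusted p of 0.0709 did not pass. Without WT 2, its lowest WT library at 9.96 CPM, Acat2 passed (log2 fold change -0.46, adjusted p = 0.0392 in edgeR's quasi-likelihood test).

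From mevalonate to the isoprenoid units, the last pair of enzymes fell and the first pair was not called. Mvk, the kinase of mevalonate, and Pmvk, the kinase of phosphomevalonate, overlapped between genotypes. Mvk averaged 10.6 ± 0.666 CPM in WT and 11.2 ± 0.831 CPM in KO, and Pmvk averaged 13.9 ± 0.970 CPM in WT and 12.5 ± 1.53 CPM in KO. The interval of the log2 fold change was -0.14 to 0.31 for Mvk and -0.41 to 0.11 for Pmvk. Mvd, the decarboxylase that makes isopentenyl diphosphate (ENSMUSG00000006517, chromosome 8, 122433601 to 122443422, minus strand), stood at 20.2, 19.0 and 17.2 CPM in WT 1 to WT 3 and at 12.1, 11.4 and 10.4 CPM in KO 1 to KO 3. Each KO library lay below each WT library (log2 fold change -0.73, SE 0.09, adjusted p = 0.00501). Idi1, the isomerase that makes the allylic partner of that unit (ENSMUSG00000058258, chromosome 13, 8885501 to 8892451, plus strand), stood at 40.6, 36.7 and 45.6 CPM in WT 1 to WT 3 and at 22.9, 25.1 and 17.0 CPM in KO 1 to KO 3. It had the largest fall of the 20 enzymes, to 52.9% of the WT mean (log2 fold change -0.92, SE 0.15, adjusted p = 0.00791), and also the widest spread in KO, with a coefficient of variation of 19.4%.

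Of the 2 synthases that join isoprenoid units into chains, 1 fell. Fdps, the synthase of farnesyl diphosphate, from which both sterols and longer chains are made (ENSMUSG00000059743, chromosome 3, 89093588 to 89101959, minus strand), stood at 32.7, 30.9 and 34.3 CPM in WT 1 to WT 3 and at 22.1, 26.5 and 21.0 CPM in KO 1 to KO 3 (log2 fold change -0.49, SE 0.10, adjusted p = 0.0105). Ggps1, which extends farnesyl to the geranylgeranyl diphosphate used to anchor small GTPases, overlapped between genotypes, at 14.9, 12.9 and 11.8 CPM in WT 1 to WT 3 and at 13.5, 11.7 and 11.9 CPM in KO 1 to KO 3 (log2 fold change -0.10, 95% interval -0.36 to 0.16, adjusted p = 0.52). Whether the responses of Fdps and Ggps1 differ was not tested. Ggps1 shares 257 bases of exon with the opposite-strand gene Arid4b, which averaged 49.97 ± 0.596 CPM in WT and 37.3 ± 1.92 CPM in KO.

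All 3 enzymes between farnesyl diphosphate and lanosterol fell. Fdft1, squalene synthase (ENSMUSG00000021273, chromosome 14, 63145150 to 63179578, minus strand), stood at 18.3, 18.2 and 17.3 CPM in WT 1 to WT 3 and at 11.1, 11.3 and 11.2 CPM in KO 1 to KO 3. The coefficients of variation were 2.93% in WT and 0.579% in KO, but 3 libraries with 317 to 337 counts in KO measure a spread poorly. The genotypes did not overlap (log2 fold change -0.68, SE 0.07, adjusted p = 0.00417). Fdft1 shares 774 bases of exon with Ctsb, a gene on the opposite strand with many more reads, at 12808.7 ± 425 CPM in WT and 13459.4 ± 596 CPM in KO. How the authors assigned reads by strand is not given in the sources used here, and the share of such reads in the Fdft1 count was not tested.

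For Sqle and Lss, which also fell, the call depended on single libraries. Sqle, the squalene epoxidase that catalyses an oxygen-dependent control step of the route (ENSMUSG00000022351, chromosome 15, 59315077 to 59331192, plus strand), stood at 32.8, 34.4 and 38.8 CPM in WT 1 to WT 3 and at 23.1, 32.0 and 24.9 CPM in KO 1 to KO 3. KO 2 came close to the lowest WT library, and the fall was just past the threshold (log2 fold change -0.41, SE 0.13, adjusted p = 0.0468). Its call was lost without WT 1, WT 2, WT 3, KO 1 or KO 3, where adjusted p reached 0.131 in edgeR's quasi-likelihood test, and also under plain library totals. Lss, lanosterol synthase (ENSMUSG00000033105, chromosome 10, 76531588 to 76557138, plus strand), stood at 22.7, 23.1 and 22.3 CPM in WT 1 to WT 3 and at 16.0, 19.6 and 16.8 CPM in KO 1 to KO 3 (log2 fold change -0.38, SE 0.09, adjusted p = 0.016). Leaving out WT 1 or KO 3 ended this call (highest adjusted p = 0.0596 in edgeR's quasi-likelihood test), as did the authors' normalized signal.

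From lanosterol to cholesterol, 5 of 8 enzymes fell. Cyp51, the lanosterol demethylase that opens this stretch (ENSMUSG00000001467, chromosome 5, 4081145 to 4104746, minus strand), stood at 56.7, 52.0 and 58.2 CPM in WT 1 to WT 3 and at 34.3, 35.3 and 27.7 CPM in KO 1 to KO 3. The genotypes were apart, and the KO mean was 58.3% of WT (log2 fold change -0.78, SE 0.10, adjusted p = 0.00505). Cyp51 shares 166 bases of exon with the opposite-strand gene Akap9, which averaged 67.2 ± 1.04 CPM in WT and 56.6 ± 6.36 CPM in KO. Msmo1, the methylsterol oxidase that starts removal of the methyl groups at carbon 4 (ENSMUSG00000031604, chromosome 8, 64718139 to 64733792, minus strand), stood at 63.7, 60.1 and 75.2 CPM in WT 1 to WT 3 and at 46.4, 49.0 and 40.5 CPM in KO 1 to KO 3. Its highest KO library remained below its lowest WT library, WT 2 (log2 fold change -0.55, SE 0.10, adjusted p = 0.00961).

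Sc5d and Hsd17b7 also fell in this stretch. Sc5d, the desaturase that acts before the last reduction (ENSMUSG00000032018, chromosome 9, 42251595 to 42264256, minus strand), stood at 25.4, 23.2 and 26.0 CPM in WT 1 to WT 3 and at 17.0, 16.5 and 15.3 CPM in KO 1 to KO 3 (log2 fold change -0.61, SE 0.08, adjusted p = 0.00499). Hsd17b7, the keto-reductase that completes removal of the carbon 4 methyl groups (ENSMUSG00000026675, chromosome 1, 169949535 to 169969241, minus strand), stood at 12.1, 10.7 and 12.6 CPM in WT 1 to WT 3 and at 9.27, 9.92 and 8.21 CPM in KO 1 to KO 3. It did not overlap between genotypes (log2 fold change -0.37, SE 0.11, adjusted p = 0.0343), but its call was lost without WT 1, WT 3 or KO 3 (highest adjusted p = 0.108 in edgeR's quasi-likelihood test) and with the authors' normalized signal.

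Dhcr7, the reductase that turns 7-dehydrocholesterol into cholesterol (ENSMUSG00000058454, chromosome 7, 143823145 to 143848410, plus strand), also fell. It stood at 25.0, 26.4 and 26.8 CPM in WT 1 to WT 3 and at 23.8, 22.0 and 19.8 CPM in KO 1 to KO 3, and its KO mean was 83.8% of WT (log2 fold change -0.26, SE 0.08, adjusted p = 0.0458). Its call held without KO 1 but was lost without any 1 of the other 5 libraries, where adjusted p reached 0.126 in edgeR's quasi-likelihood test, and also under plain library totals, with the authors' normalized signal, and without WT 2 and KO 2 together. The other 3 enzymes of the stretch were not called. Tm7sf2, a sterol carbon 14 reductase, had all KO libraries below all WT libraries, at 6.80, 6.26 and 6.03 CPM in WT 1 to WT 3 and at 5.83, 5.18 and 5.75 CPM in KO 1 to KO 3, and an adjusted p of 0.227 in edgeR's quasi-likelihood test; it shares 532 bases of exon with the same-strand gene Vps51. Nsdhl, the decarboxylase of the carbon 4 methyl groups, averaged 13.8 ± 1.92 CPM in WT and 12.6 ± 0.297 CPM in KO. Ebp, the isomerase that moves the double bond of the sterol ring, stood at 39.6, 38.0 and 40.5 CPM in WT 1 to WT 3 and at 43.1, 42.7 and 40.3 CPM in KO 1 to KO 3, overlapping between genotypes, with an interval of -0.04 to 0.23 for its log2 fold change.

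**Figure D2:**
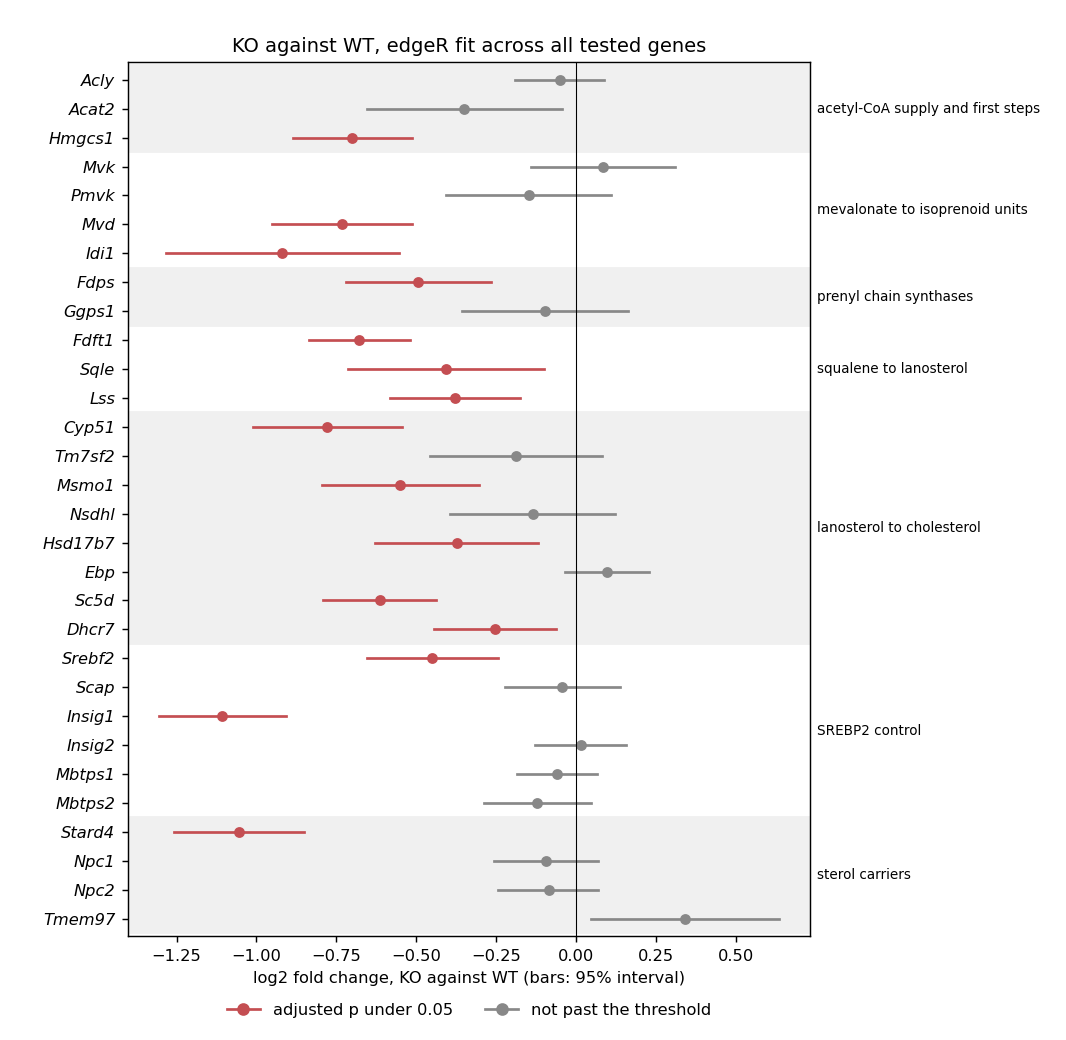
Points give the log2 fold change of each member in KO against WT and bars its 95% interval, in pathway order; red marks an adjusted p under 0.05. The red intervals of 15 genes lie left of 0, and of the grey ones the interval of Acat2 lies left of 0 and that of Tmem97 right of 0, each with an adjusted p of 0.071.

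Compared per length of merged exon, the enzymes differed widely in level, and the falls were not limited to abundant or scarce ones. In WT the level ran from 1.45 CPM per kb for Tm7sf2 to 35.8 for Acly. Hmgcs1, at 17.6 CPM per kb in WT and 10.8 in KO, and Lss, at 2.11 CPM per kb in WT and 1.62 in KO, both fell. The low place of Lss depends on its merged exon length of 10.79 kb. By CPM alone it averaged 22.7 in WT, above Mvd at 18.8 and Fdft1 at 17.9. Ebp, at 17.0 CPM per kb in WT and 18.2 in KO, stood beside Hmgcs1 in WT, at 17.0 against 17.6 CPM per kb, and was not called. In KO its level per kb was above that of Hmgcs1. Over the whole set, Npc2 had the highest level per length in WT, at 215 CPM per kb, followed by Insig1 at 42.0, Acly, Npc1 at 34.5 and Srebf2 at 26.0. In KO, Insig1 stood at 19.5 CPM per kb, below both Acly and Npc1 at 34.5 and 32.4.

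Among the genes that control SREBP2, the factor itself and Insig1 fell. Srebf2, which encodes SREBP2 and is itself a target of SREBP2 (ENSMUSG00000022463, chromosome 15, 82147181 to 82205379, plus strand), stood at 174, 184 and 203 CPM in WT 1 to WT 3 and at 128, 151 and 131 CPM in KO 1 to KO 3. The highest KO library, KO 2, was below the lowest WT library, WT 1, and the KO mean was 73.2% of WT (log2 fold change -0.45, SE 0.09, adjusted p = 0.0102). Insig1, the retention protein whose gene is an SREBP target (ENSMUSG00000045294, chromosome 5, 28071363 to 28078662, plus strand), stood at 136, 124 and 129 CPM in WT 1 to WT 3 and at 67.6, 57.9 and 55.5 CPM in KO 1 to KO 3. It fell 2.15-fold (log2 fold change -1.11, SE 0.09, adjusted p = 0.00398). Its log2 fold change stayed between -1.20 and -1.05 in all 13 other ways of processing tried. With all libraries it had the log2 fold change farthest below 0 of the 30 members, but not without KO 2, where Stard4 stood at -1.09 and Insig1 at -1.08, nor without WT 2 and KO 2 together, where Stard4 stood at -1.15 and both Idi1 and Insig1 at -1.11.

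Insig2, the paralog of Insig1 with the same retention role, was not called. Insig2 (ENSMUSG00000003721, chromosome 1, 121304353 to 121332589, minus strand) stood at 27.1, 25.2 and 26.0 CPM in WT 1 to WT 3 and at 26.6, 27.0 and 25.5 CPM in KO 1 to KO 3, with both genotypes overlapping (log2 fold change 0.01, 95% interval -0.13 to 0.16, adjusted p = 0.876). The ratio of Insig1 to Insig2 CPM was 5.03, 4.93 and 4.96 in WT 1 to WT 3 and 2.54, 2.14 and 2.18 in KO 1 to KO 3. It went from 4.97 ± 0.0496 to 2.29 ± 0.217, without overlap between genotypes. A two-sided exact permutation test of this ratio gave p = 0.1. No smaller p is possible with 3 libraries in each genotype, so this test could not pass 0.05 and decides nothing.

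The escort and the proteases of SREBP2 were not called. Scap, the sterol-sensing escort, stood at 45.1, 50.8 and 45.8 CPM in WT 1 to WT 3 and at 41.9, 48.5 and 47.0 CPM in KO 1 to KO 3 (log2 fold change -0.04, 95% interval -0.22 to 0.14, adjusted p = 0.679). Mbtps1, the site-1 protease, averaged 83.8 ± 2.57 CPM in WT and 80.3 ± 2.22 CPM in KO, with an interval of -0.19 to 0.06 for its log2 fold change. Mbtps2, the site-2 protease, averaged 52.2 ± 1.65 CPM in WT and 48.0 ± 4.02 CPM in KO (log2 fold change -0.12, 95% interval -0.29 to 0.04, adjusted p = 0.214), and was called lower when KO 1 was left out (log2 fold change -0.20, adjusted p = 0.0312). Mbtps2 shares 2867 bases of exon with the same-strand gene Yy2, which was at 4.81 ± 0.289 CPM in WT and 3.32 ± 0.520 CPM in KO.

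**Figure D3:**
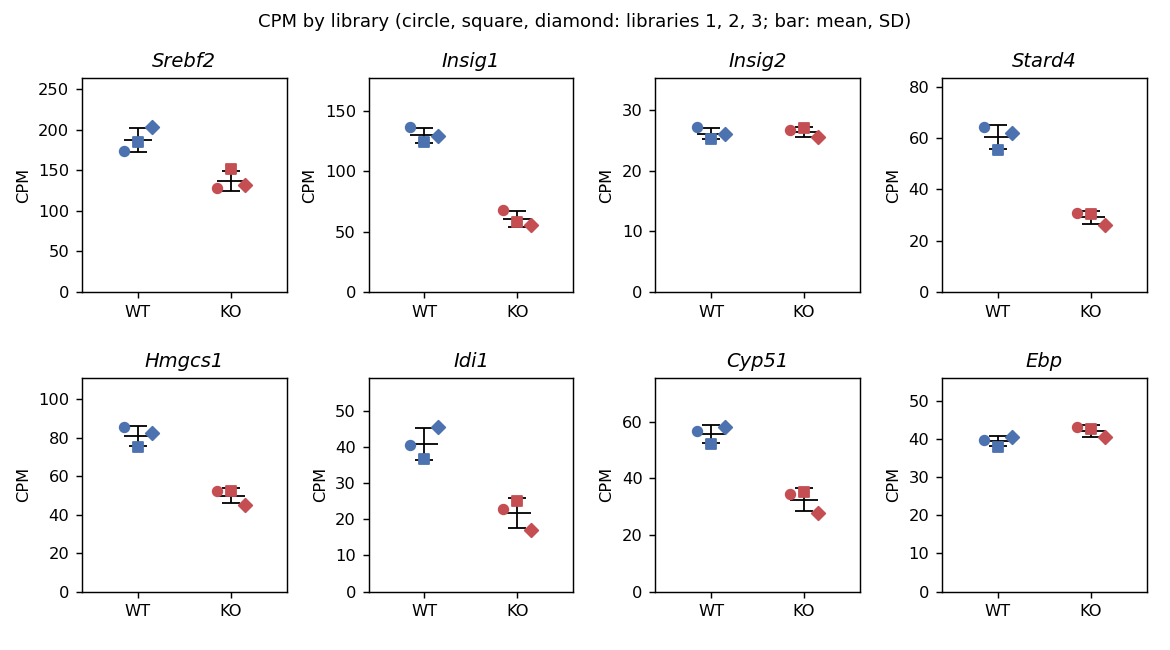
CPM of 8 members in each library, with WT in blue, KO in red, and bars for mean and SD of 3 libraries; each vertical axis starts at 0. The KO means of Insig1 and Stard4 lie at less than 50% of their WT means. Srebf2, Hmgcs1, Idi1 and Cyp51 lie lower in every KO library, and Insig2 and Ebp overlap between genotypes.

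Of the 4 sterol carriers 1 fell. Stard4, a soluble protein that moves sterol between membranes (ENSMUSG00000024378, chromosome 18, 33199355 to 33213862, minus strand), stood at 64.2, 55.2 and 62.1 CPM in WT 1 to WT 3 and at 30.8, 30.4 and 26.2 CPM in KO 1 to KO 3. The KO mean was 48.1% of WT (log2 fold change -1.06, SE 0.09, adjusted p = 0.00398). Npc2 and Npc1, which hand cholesterol out of the lysosome, were not called. Npc2 averaged 1169 ± 58.7 CPM in WT and 1100.4 ± 32.2 CPM in KO, and Npc1 averaged 391 ± 11.1 CPM in WT and 366 ± 26.2 CPM in KO. Their log2 fold changes had intervals of -0.24 to 0.07 and -0.26 to 0.07, so a fall of the size of that of Stard4 lies outside both intervals. Npc1 shares 511 bases of exon with the opposite-strand gene Rmc1, which was at 27.0 ± 0.728 CPM in WT and 31.5 ± 1.19 CPM in KO.

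Tmem97, the sigma-2 receptor that binds NPC1, lay on the other side. It stood at 20.2, 19.6 and 24.9 CPM in WT 1 to WT 3 and at 24.5, 31.3 and 26.0 CPM in KO 1 to KO 3. KO 1 was below WT 3, so the genotypes overlapped, and the adjusted p did not pass (log2 fold change 0.34, 95% interval 0.04 to 0.63, adjusted p = 0.0711). Without WT 3 or without KO 1 it was called higher, with log2 fold changes of 0.45 and 0.41 and adjusted p of 0.0352 and 0.0433 in edgeR's quasi-likelihood test. It was thus the 1 member with a call higher in KO in any of the ways of processing tried.

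Further lists cover genes around the pathway, and their counts stand against 16.8% of all tested genes lower and 18.5% higher. In the non-sterol branch, which uses the same isoprenoid units for dolichol, ubiquinone and protein prenylation, edgeR's quasi-likelihood test called 0 of 15 genes lower and 4 higher (median log2 fold change 0.12; 1 lower and 5 higher at an unadjusted p under 0.05; DESeq2 called 0 lower and 3 higher, limma-voom 0 and 4). Pdss1, which makes the ubiquinone side chain, was the clearest of them: it averaged 2.08 ± 0.117 CPM in WT and 4.39 ± 0.523 CPM in KO (log2 fold change 1.07, SE 0.16, adjusted p = 0.00606). Fntb, a farnesyltransferase subunit, Rce1, the protease that trims prenylated proteins, and Rabggtb, a subunit that prenylates Rab proteins, rose, with log2 fold changes of 0.43, 0.29 and 0.23, with KO means of 8.72, 20.7 and 41.0 CPM. The call of Pdss1 held in all 13 other ways of processing. Each of the other 3 failed to pass when WT 1, WT 2, KO 2 or KO 3 was left out, and Fntb and Rabggtb also failed when WT 3 was.

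Among 14 genes that degrade sterol enzymes or help SREBP mature in the endoplasmic reticulum, edgeR called 1 lower and 2 higher (median log2 fold change 0.03). Rnf139, a sterol-sensing ubiquitin ligase, averaged 42.8 ± 3.91 CPM in WT and 33.5 ± 2.73 CPM in KO; this fall did not pass when WT 1, WT 2, KO 2 or KO 3 was left out. Pgrmc1, a sterol-binding partner of cytochrome P450 enzymes, rose (log2 fold change 0.31; 64.5 ± 3.22 CPM in WT and 80.1 ± 4.21 CPM in KO), though not without WT 2 and KO 2 together. Vcp, the ATPase that pulls proteins out of that membrane, rose (log2 fold change 0.20), and of the 6 fits with 1 library left out its call held in the fit without KO 1 only.

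Sterol transport and esterification held more falls: of 19 tested genes, edgeR called 9 lower and 1 higher (median log2 fold change -0.19). Gramd1a, which carries cholesterol from the plasma membrane inward, averaged 75.9 ± 2.80 CPM in WT and 54.0 ± 3.32 CPM in KO (log2 fold change -0.49). The oxysterol-binding proteins Osbp, Osbpl9 and Osbpl11 fell, with log2 fold changes of -0.29, -0.35 and -0.44. The family did not fall as a group. Osbpl8 was the 1 gene of the list called higher, from 572 CPM in WT to 706 CPM in KO (log2 fold change 0.30). Osbpl1a and Osbpl2 were not called (0.045 and -0.145). The call of Osbpl11 was absent when WT 1 was left out, and the calls of Osbp and Osbpl11 were absent when WT 2 and KO 2 were left out together.

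Of 12 oxysterol and LXR genes, edgeR called 4 lower and 3 higher (median log2 fold change -0.13). Nr1h3, the oxysterol-activated receptor LXR alpha, averaged 20.3 ± 1.77 CPM in WT and 45.9 ± 1.55 CPM in KO (log2 fold change 1.18). Abcg1, a cholesterol exporter under LXR control, also rose (log2 fold change 0.56), though not without WT 2 and KO 2 together. In the same list Pltp rose (log2 fold change 0.56), while Abca1, Mylip and Lpcat3 were not called (-0.21, -0.03 and 0.05). Whether LXR activity differed was not tested. Rxra and Rxrb, partner receptors of LXR, fell, with log2 fold changes of -0.53 and -0.41. Cyp27a1, an oxysterol enzyme, also fell, from 73.1 ± 3.72 CPM in WT to 42.6 ± 11.9 CPM in KO (log2 fold change -0.78). Ch25h, the cholesterol 25-hydroxylase, was scarce, with 3.34 ± 0.712 CPM in WT and 1.76 ± 0.286 CPM in KO, and its fall did not pass when WT 1, WT 2, KO 2 or KO 3 was left out. On the side of acetyl-CoA supply and fatty acid synthesis, 1 of 9 tested genes fell and 0 rose (3 lower and 0 higher at an unadjusted p under 0.05 in edgeR; DESeq2 and limma-voom called 2 lower and 0 higher). The 1 that fell was Fads1, a fatty acid desaturase (log2 fold change -0.31).

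Across the ways of processing, 11 of the 15 falls were called in all 13 alternatives: Hmgcs1, Mvd, Idi1, Fdps, Fdft1, Cyp51, Msmo1, Sc5d, Srebf2, Insig1 and Stard4. The other 4, Sqle, Lss, Hsd17b7 and Dhcr7, kept their direction and lost their call in 3 to 8 of them. The number of members called lower was 11 to 15 when 1 library was left out, while the number called among all genes went from 1979 to 5456.

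**Figure D4:**
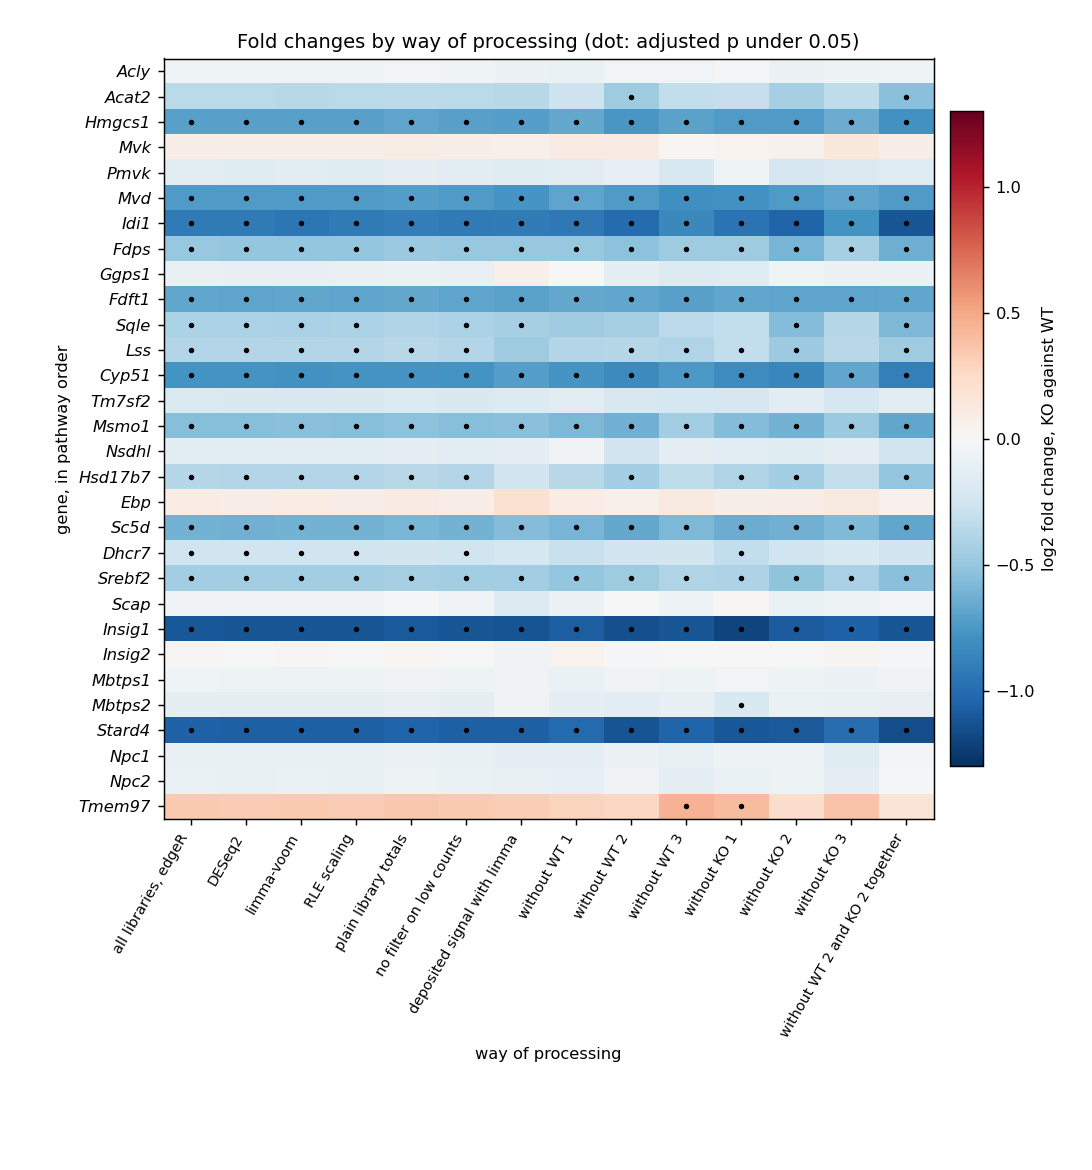
Colour gives the log2 fold change of each member (rows, pathway order) in the fit on all libraries and in the 13 alternatives (columns); a dot marks an adjusted p under 0.05. The rows of 11 genes carry a dot in every column, and the row of Tmem97 carries dots only without WT 3 and without KO 1.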

How the data were processed

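RNA of 6 cultures was measured by sequencing of directional libraries, per the labels' protocols. The authors used DRAGEN and DESeq2 with build mm10, per the submitters' processing notes. Tool versions, annotation and strand setting were not given in the sources used here. The authors deposited a raw count for each of 42256 Ensembl genes in each library. A second deposited table holds a normalized signal, in which each count has been divided by a factor specific to its gene and library. Genotype labels gave the groups, and replicates were numbered in sample order.

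Counts were kept by filterByExpr (minimum count 10; 12862 genes), normalized with TMM factors and compared, KO against WT without covariates, by edgeR 4.0.16 (R 4.3.3; robust quasi-likelihood test), two-sided, with Benjamini-Hochberg adjustment over all genes tested. Standard errors and 95% intervals follow from the F statistic. Alternatives were DESeq2 1.42.0, limma-voom (limma 3.58.1), RLE scaling, plain totals, no filter, limma on the authors' signal (log2, pseudocount 1), and each library left out in turn; leaving out WT 2 and KO 2 together was chosen after seeing the data.

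Symbols, coordinates and exon lengths come from GENCODE M21 (GRCm38, also called mm10) and promoters from RefSeq (GRCm38.p6). The members and gene lists were chosen with earlier results of these data known. Named genes were all 30 members and up to 4 called genes of each further pathway list with the smallest p. Rxra, Pltp, Abca1, Mylip, Lpcat3, Cyp27a1, Osbpl8, Osbpl1a and Osbpl2 were named beside them after their values were seen. Idi1 was added to the promoters shown after its values were seen.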

Additional observations from a re-analysis of the deposited data

How the results depend on the processing

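Of 390 values of the 30 members under 13 alternatives, 357 kept their direction and their side of the threshold, 21 lost a call, 5 gained one and 7 changed sign. The 7 sign changes were in 3 genes with values near 0 that were called nowhere: Ggps1 (0.064 with the authors' normalized signal), Scap (0.0060 without WT 2, 0.014 without KO 1) and Insig2 (-0.047 with the normalized signal, -0.016 without WT 2, -0.0030 without KO 2, -0.029 without WT 2 and KO 2 together). The cause was not tested. With 1 library left out, values ran from -0.085 to 0.014 for Scap and -0.016 to 0.041 for Insig2. The 21 lost calls were those of Sqle, Lss, Hsd17b7 and Dhcr7, and the 5 gained calls were 2 of Acat2, 2 of Tmem97 and 1 of Mbtps2. With 1 library left out, 11 to 15 members were called lower and 0 to 1 higher. Over all genes, calls went from 4532 to 1979 without WT 1, 2487 without WT 2, 3679 with WT 3 left out, 2719 without KO 2, 2379 without KO 3, 5456 without KO 1 and 1378 without WT 2 and KO 2 together, where 15 members were still called lower, 14 of them among the first 15; these fits hold fewer libraries. No paired analysis was possible because the labels give no number shared between genotypes. Members had at least 151 counts per library, so depth did not limit their detection.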
